A study of Sus scrofa with 60 samples.

Results

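The liver moves bile acids and other organic anions with membrane proteins that sit on opposite faces of the hepatocyte. Transcripts of 10 of them were examined here, in the livers of neonatal pigs. The canalicular genes were ABCB11, ABCC2 and ATP8B1, the genes of basolateral uptake were SLC10A1, SLCO1A2 and SLCO2B1, and the genes of basolateral efflux were ABCC3, ABCC4, SLC51A and SLC51B. They were taken by gene name from the count table, as 10 of its 30335 named genes. All 10 were among the 16210 genes with enough counts to be tested.

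The pigs were delivered by cesarean section and underwent bile duct ligation (BDL) or sham surgery on day 1 of life. They then received enteral formula (ENT), parenteral nutrition with a soy-based lipid (SLE) or parenteral nutrition with a mixed lipid (MLE) for 14 days, after which liver mRNA was sequenced. Surgery, jugular catheters and a first 24 hours on parenteral nutrition were common to every group, so their plain effect could not be measured. In ENT pigs parenteral support then fell in steps and ended by day 7, when feeding was wholly enteral. The sham groups were ENT-sham (n = 12), SLE-sham (n = 10) and MLE-sham (n = 9), and the ligated groups ENT-BDL (n = 10), SLE-BDL (n = 11) and MLE-BDL (n = 8), of both sexes. Replicates are given as separate pigs, with doubts about 4 libraries that are set out below.

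Hepatocytes take conjugated bile acids from sinusoidal blood, chiefly through the sodium-dependent carrier encoded by SLC10A1, and secrete them into the canaliculus through the pump encoded by ABCB11. When bile cannot leave, carriers of the basolateral membrane can return bile acids to the blood. Several of these genes are controlled by nuclear receptors that bind bile acids, and ABCC3, SLC51A and SLC51B are also made by cells of the bile ducts.

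Library depth ran from 14469788 to 21374161 counts over named genes (median 17254606), and group medians from 16941880 in MLE-sham to 17810100.5 in ENT-sham. Levels are given as CPM, the count scaled to library size with TMM factors, and levels of different genes are compared only per kilobase of gene length. Fold changes are log2 values from edgeR, with their standard error (SE), and p is adjusted over all 16210 genes. The strand of the reads was not stated, so reads of an overlapping or antisense transcript could not be told from those of the gene.

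A number of libraries need to be known before the values. ENT-sham replicate 2 and ENT-BDL replicate 1 were almost the same library: the chi-square per degree of freedom between them was 1.91 over 15841 genes, against 16.1 for the next closest of the 1770 pairs and a median of 53.4 for the 275 pairs within a group. ENT-sham replicate 2 had the highest ENT-sham level of ABCB11, ABCC4, SLC51A and SLC51B and the lowest of SLCO1A2, SLCO2B1 and ABCC3. Both libraries were kept, and ENT values without them are given below. SLE-BDL replicate 7 stood apart for ABCB11 (1297 CPM) and SLC51A (118 CPM, 1772 counts). SLE-sham replicates 9 and 10 carried the same pig identifier, but the same measure between them was 34.2. The identifiers also held a number with 8 values whose meaning was not given, and MLE pigs had only the 4 highest. Pairs from different groups with the same number were slightly more alike (mean r = 0.133, 177 pairs) than pairs with different numbers (mean r = -0.0178, 1318 pairs), so fits with this number as a block are also reported.

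Per kilobase, SLCO2B1, SLC10A1, ABCB11 and ABCC2 stood highest among the 10. SLCO2B1 averaged 96.3 CPM per kilobase over all 60 libraries, SLC10A1 83.3, ABCB11 81.5 and ABCC2 40.3, placing these 4 above at least 92.2% of tested genes. Their order changed by group. SLC10A1 led in ENT-sham (117, SLCO2B1 91.9) and ABCB11 in ENT-BDL (112.5, SLC10A1 97.3, SLCO2B1 78.7), while SLCO2B1 led in the SLE and MLE groups. SLC51B averaged 25.1, ABCC3 7.32, ATP8B1 5.89, ABCC4 3.93, SLC51A 2.94 and SLCO1A2 1.07. SLCO1A2 was at the 28.5th percentile and SLC51A at the 45.1st. Over all libraries these were the scarcest transcripts of the list, SLC51A with as few as 5 counts in a library. In ENT-sham, however, SLCO1A2 (2.85 CPM per kilobase) stood above ABCC4 (1.95) and SLC51A (0.545).

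Bile duct ligation raised 3 of the 4 basolateral efflux transcripts in the enterally fed and MLE pigs. ABCC4, SLC51A and SLC51B were higher after BDL under both diets, while SLCO1A2 was lower. ABCB11 rose and ABCC3 fell in the enterally fed pigs, and SLCO2B1 fell in MLE pigs. None of the 10 was called in SLE pigs. In ENT pigs 6 of the 10 changed, against 17.4% of all tested genes (2823 genes), and 4 of the 10 by more than 2-fold, against 3.39%. In MLE pigs 5 changed (all genes 14.4%, 2339 genes), 2 of them by more than 2-fold (all genes 3.78%). In SLE pigs edgeR called 0 of the 10 (all genes 4.54%, 736 genes, and 1.49% over 2-fold). At unadjusted p below 0.05 it had 2 there (SLCO1A2 and ABCC4), against 18.3% of all genes, and DESeq2 called 0. Without SLE-BDL replicate 7, ABCB11 was called in SLE pigs (log2 fold change -0.44, adjusted p = 0.0428). By role, ENT-BDL pigs had 1 of 3 canalicular, 1 of 3 uptake and 4 of 4 efflux genes changed, and MLE-BDL pigs none of the canalicular, 2 of 3 uptake and 3 of 4 efflux genes. The efflux genes of ENT-BDL pigs went both ways, 3 higher and 1 (ABCC3) lower. The median log2 fold change of the 4 efflux genes was 1.32 in ENT (all genes 0.01), 1.05 in MLE (all genes 0.00) and 0.35 in SLE (all genes 0.01).

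In sham pigs, parenteral nutrition changed many of the same transporters. Both lipid emulsions were accompanied by less SLC10A1, SLCO1A2 and ABCC3 and more ABCC4 than in enterally fed sham pigs, and SLE also by more SLC51A and SLC51B. The canalicular genes were not called. Comparing SLE-sham with ENT-sham, 6 of the 10 were called (all genes 27.5%, 4463 genes), 4 of them over 2-fold (all genes 5.24%). The count became 7 without ENT-sham replicate 4, ENT-sham replicate 5 or ENT-BDL replicate 4, as SLCO2B1 was then called (0.28, 0.29 and 0.26; adjusted p = 0.0414, 0.0331 and 0.0429). Comparing MLE-sham with ENT-sham, 5 were called (all genes 21.1%, 3417 genes), 1 of them over 2-fold (all genes 3.71%), and the count was 4 without MLE-sham replicate 4, when SLCO2B1 was lost (0.27, adjusted p = 0.0709). MLE-sham and SLE-sham differed in 0 of the 10 by edgeR (all genes 0.999%, 162 genes, and 0.463% over 2-fold). At unadjusted p below 0.05 there were 4 in that comparison (ABCB11, ABCC4, SLC51A and SLC51B), against 11.3% of all genes, and DESeq2 called 2 (ABCB11 and SLC51A). The count by edgeR became 2 without SLE-BDL replicate 7 or MLE-sham replicate 7, and 1 without MLE-sham replicate 8, ENT-sham replicate 2 or SLE-sham replicate 9, with the values given for ABCB11, SLC51A and SLC51B below.

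Among ligated pigs, parenteral nutrition was accompanied by less ABCB11 and SLCO1A2 than enteral feeding. MLE-BDL pigs also had less SLC10A1, and SLE-BDL pigs had more SLCO2B1 and SLC51A. The SLC51A difference rested on SLE-BDL replicate 7, without which it was 0.42 (adjusted p = 0.587). Comparing SLE-BDL with ENT-BDL, 4 of the 10 were called (all genes 19.6%, 3176 genes), 1 over 2-fold (all genes 3.13%). This count was among the least steady: leaving out 1 library at a time gave from 1 (without ENT-BDL replicate 4) to 5 (without ENT-sham replicate 2), and the accounts of ABCB11, SLCO2B1 and SLC51A below name the libraries. Comparing MLE-BDL with ENT-BDL, 3 were called (all genes 16.8%, 2722 genes), 0 over 2-fold by edgeR (all genes 3.18%). MLE-BDL and SLE-BDL differed in 0 by edgeR (all genes 0.907%, 147 genes, and 0.37% over 2-fold). At unadjusted p below 0.05 there were 4 (ABCB11, ATP8B1, SLC10A1 and SLCO2B1), against 13% of all genes, and DESeq2 called 1 (SLC10A1), as edgeR did without SLE-BDL replicate 2 or 6 (-0.66, adjusted p = 0.0207, and -0.66, adjusted p = 0.0249). Comparisons sharing a group, such as those against ENT-sham, are not independent of each other.

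The effect of BDL differed between diets for SLCO1A2 and ABCC3. In the interaction of BDL with SLE against ENT, 2 of the 10 were called (all genes 2.33%, 377 genes), and in that with MLE against ENT 1, ABCC3 (all genes 0.0617%, 10 genes), a count that was 0 by edgeR without any of the 22 libraries named for ABCC3 below. In that with MLE against SLE edgeR called 0 (all genes 0.265%, 43 genes). At unadjusted p below 0.05 there was 1 (SLC51B), against 9.76% of all genes, and DESeq2 called 0. DESeq2 called 3 for SLE against ENT, adding ABCB11 (-0.74, adjusted p = 0.0472). The edgeR count there rose to 5 without ENT-sham replicate 2, adding ABCB11 (-0.83, adjusted p = 0.0217), ABCC4 (-0.95, adjusted p = 0.00236) and SLC51B (-1.503, adjusted p = 0.0238). It was 3 without SLE-BDL replicate 7 (ABCB11 -1.02, adjusted p = 0.000812) or SLE-sham replicate 9 (ABCB11 -0.80, adjusted p = 0.0493). It was 1 without SLE-BDL replicate 10, SLE-sham replicate 4 or ENT-sham replicate 12, when SLCO1A2 was lost (1.12, 1.15 and 1.11; adjusted p = 0.0529, 0.0515 and 0.053).

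**Figure D1:**
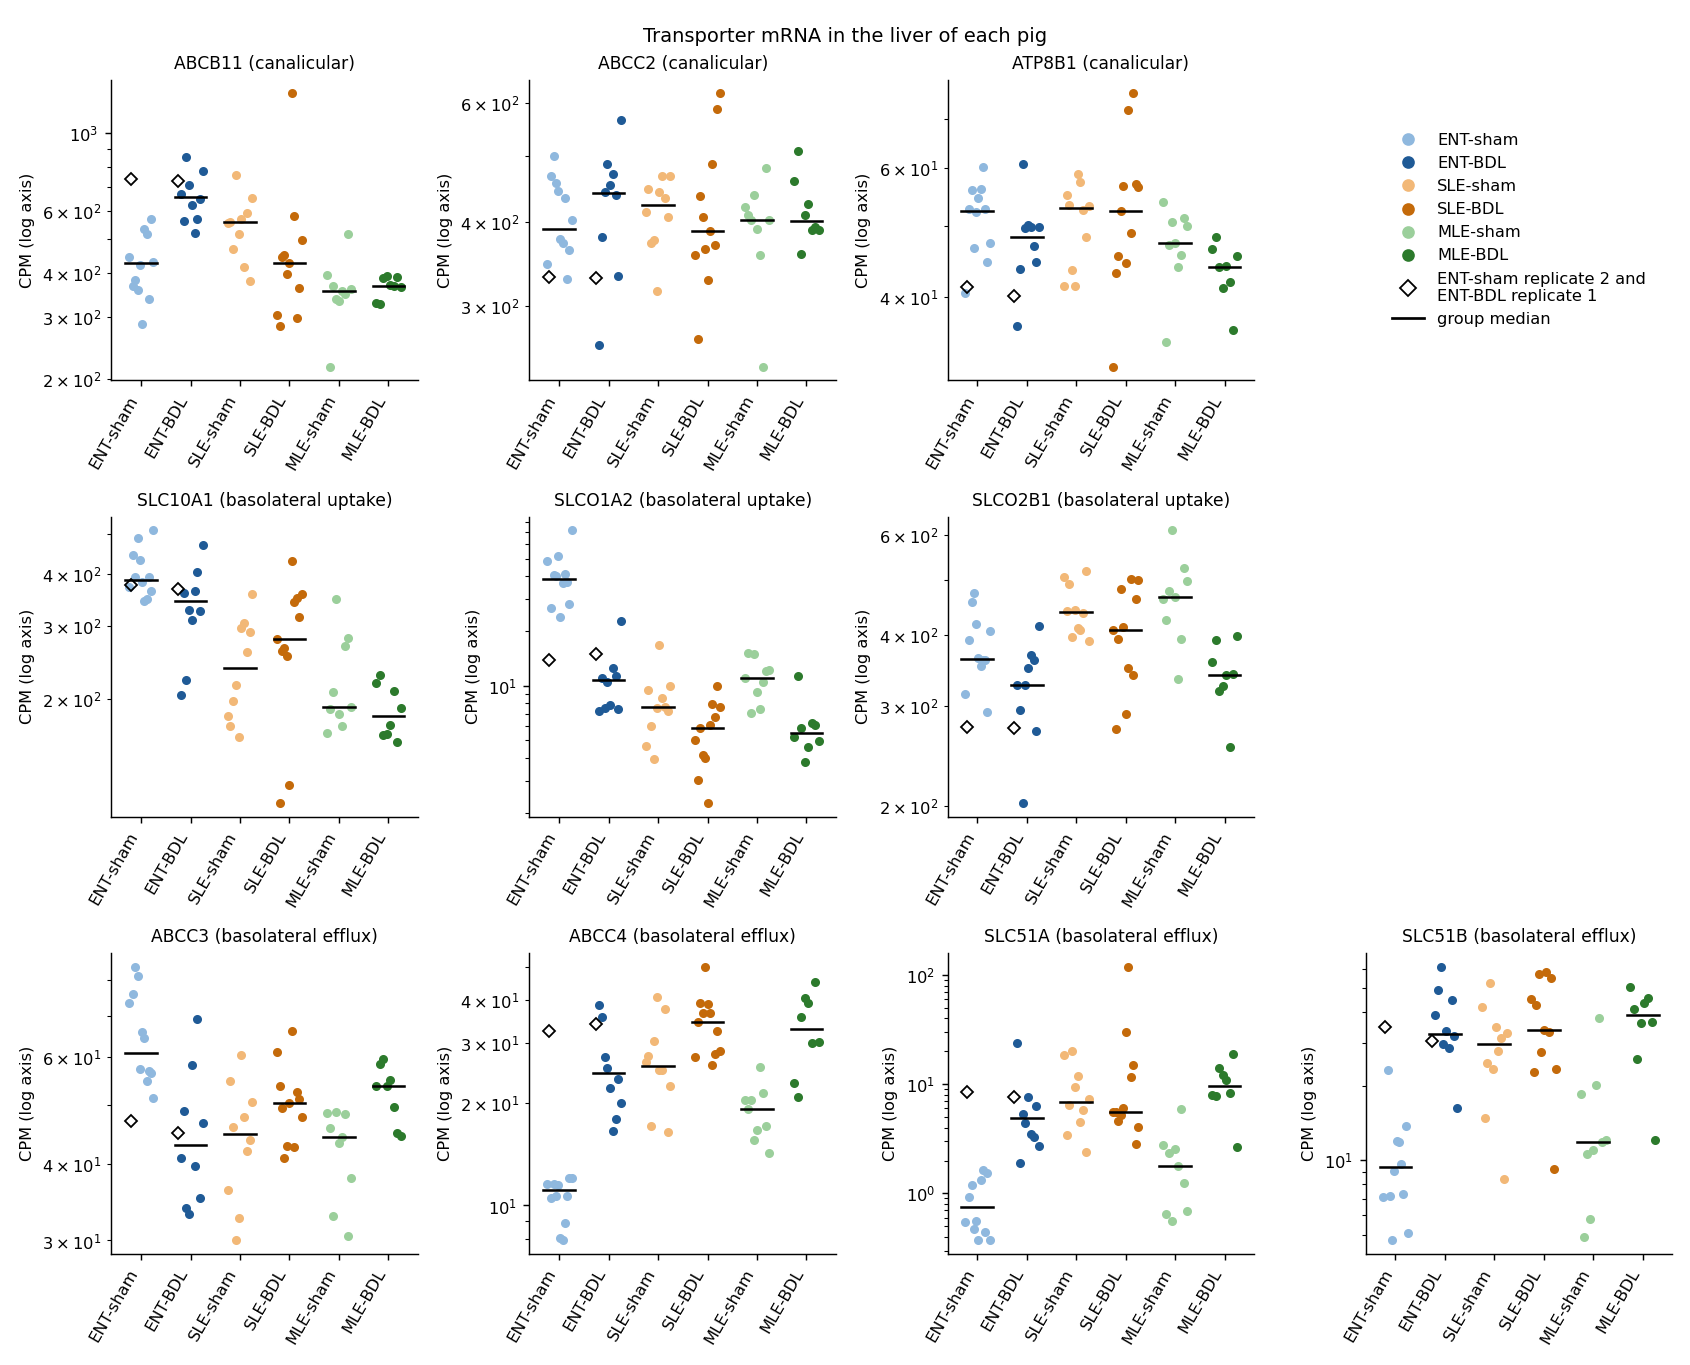
Level of each transporter gene in each pig, in CPM on a logarithmic axis, by group; each mark is 1 library and lines are group medians. Open diamonds are the matching libraries ENT-sham replicate 2 and ENT-BDL replicate 1.

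**Figure D2:**
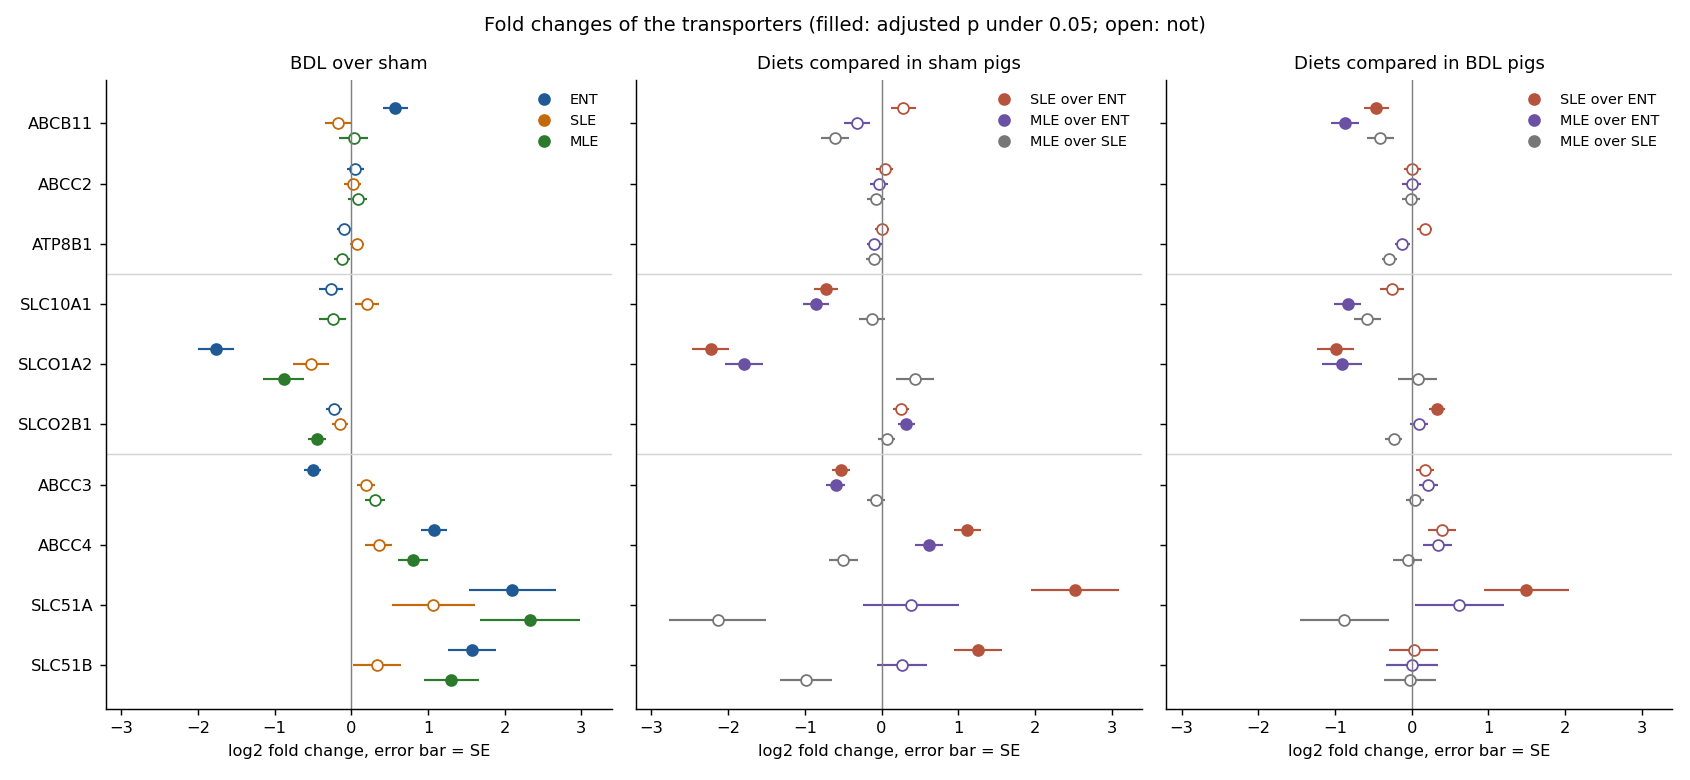
Log2 fold change with its standard error for each gene, for BDL over sham within each diet, for diets within sham pigs and for diets within BDL pigs. Filled marks passed adjusted p below 0.05 and open marks did not.

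ABCB11 encodes the bile salt export pump of the canaliculus (chromosome 15, 75402296 to 75487092, minus strand). It was more abundant in ligated than in sham pigs on formula, and the difference was not called on either lipid emulsion. ENT-sham pigs ran from 286 to 739 CPM (median 425) and ENT-BDL pigs from 520.0 to 853 CPM (median 659). The ranges overlapped, with 2 of 10 ENT-BDL pigs above every ENT-sham pig, and the highest ENT-sham pig, replicate 2, stood clear of the next at 568 CPM. ABCB11 was significantly higher in ENT-BDL (log2 fold change 0.57, SE 0.16, adjusted p = 0.00948), and higher still without the matching libraries (0.64, adjusted p = 0.00347). With the identifier block the value was 0.62 (adjusted p = 0.00192). SLE-sham pigs ran from 379 to 757 CPM (median 557) and SLE-BDL pigs from 282 to 1297 CPM (median 428), where the second highest pig had 580.3 CPM. The log2 fold change in SLE was -0.17 (adjusted p = 0.64), but -0.44 (adjusted p = 0.0428) without SLE-BDL replicate 7. MLE-sham pigs ran from 216 to 516 CPM (median 354) and MLE-BDL pigs from 327 to 393 CPM (median 368), which lay wholly inside the sham range (0.03, adjusted p = 0.945).

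For ABCB11 the emulsions differed more from formula in ligated than in sham pigs. All 8 MLE-BDL pigs were below every ENT-BDL pig (-0.87, SE 0.18, adjusted p = 0.000468). So were 9 of 11 SLE-BDL pigs, where the fold change was -0.46 (SE 0.17, adjusted p = 0.0426). That call was lost without any 1 of 14 libraries: SLE-BDL replicates 1, 2, 3, 4, 5, 6, 9 and 10 and ENT-BDL replicates 1, 2, 4, 5, 9 and 10 (-0.46 to -0.40, adjusted p from 0.0509 to 0.0859). Without SLE-BDL replicate 7 it was -0.73 (adjusted p = 5e-05), without both matching libraries -0.44 (adjusted p = 0.0529) and with the identifier block -0.47 (adjusted p = 0.0265). The call was also lost with only the groups compared (-0.47, adjusted p = 0.15) and with no filter on low counts (-0.47, adjusted p = 0.0527). In sham pigs the values were 0.29 for SLE against ENT (adjusted p = 0.2), -0.32 for MLE against ENT (adjusted p = 0.176) and -0.61 for MLE against SLE (adjusted p = 0.075). The last passed without MLE-sham replicate 8 (-0.69, adjusted p = 0.0471), SLE-BDL replicate 7 (-0.61, adjusted p = 0.0115) or SLE-sham replicate 9 (-0.65, adjusted p = 0.047), by DESeq2 (-0.61, adjusted p = 0.042) and with only the groups compared (-0.61, adjusted p = 0.0223). It did not pass with the identifier block (-0.47, adjusted p = 0.25) or with replicate number as a block (-0.61, adjusted p = 0.0988). The interaction of BDL with diet was -0.75 for SLE against ENT (adjusted p = 0.0734) and -0.55 for MLE against ENT (adjusted p = 0.51), so edgeR did not show a smaller effect of ligation under these diets. DESeq2 called the SLE interaction (-0.74, adjusted p = 0.0472). Without SLE-BDL replicate 7 the SLE interaction was -1.02 (adjusted p = 0.000812), without ENT-sham replicate 2 -0.83 (adjusted p = 0.0217) and without SLE-sham replicate 9 -0.80 (adjusted p = 0.0493). By mean log2 level, as in the orders given for the other genes, the groups ran ENT-BDL, SLE-sham, SLE-BDL, ENT-sham, MLE-BDL and MLE-sham, and only the first step was larger than the spread within the groups beside it. That step only just passed the spread (0.300 against 0.296).

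ABCC2 encodes the canalicular exporter of conjugated bilirubin and other organic anions (chromosome 14, 110955698 to 111038898, plus strand). It was as abundant in ligated as in sham pigs, as far as these numbers of pigs could tell, and was called in none of the 12 comparisons. Its lowest, median and highest levels were 328, 390 and 500.2 CPM in ENT-sham and 262, 440.4 and 565 CPM in ENT-BDL. They were 316, 424 and 468 CPM in SLE-sham, 267, 387 and 620.1 CPM in SLE-BDL, 243, 402 and 480.04 CPM in MLE-sham, and 357, 401 and 508 CPM in MLE-BDL. All 6 ranges overlapped, and the part common to them ran from 357 to 468 CPM. The 95% intervals of the log2 fold change after BDL were -0.17 to 0.27 in ENT, -0.21 to 0.24 in SLE and -0.17 to 0.33 in MLE, and no step in the order of the groups was larger than the spread.

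ATP8B1 encodes a phospholipid flippase of the canalicular membrane that is needed for bile secretion (chromosome 1, 162936209 to 163063040, plus strand). Its transcript was not called in any of the 12 comparisons. Its lowest, median and highest levels were 40.4, 52.5 and 60.2 CPM in ENT-sham and 36.5, 48.3 and 60.7 CPM in ENT-BDL. They were 41.4, 52.9 and 58.9 CPM in SLE-sham, 32.1, 52.4 and 75.8 CPM in SLE-BDL, 34.7, 47.4 and 53.9 CPM in MLE-sham, and 36.1, 43.9 and 48.2 CPM in MLE-BDL. The ranges overlapped, and the part common to all 6 groups ran from 41.4 to 48.2 CPM. The 95% intervals after BDL were -0.28 to 0.09 in ENT, -0.11 to 0.26 in SLE and -0.33 to 0.09 in MLE. ATP8B1 lies 18.1 kb from SLC51B on the same strand of chromosome 1, yet the correlation between their levels was -0.03 over the 60 libraries.

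SLC10A1 encodes the main sodium-dependent carrier of conjugated bile acids into the hepatocyte (chromosome 7, 93400037 to 93421989, minus strand). It differed by diet, and its changes with ligation were not called. The lowest, median and highest levels were 345, 388 and 510.04 CPM in ENT-sham, 162, 238 and 358 CPM in SLE-sham, and 166, 191 and 349 CPM in MLE-sham. The emulsion ranges met that of ENT-sham only at their edges, as 9 of 10 SLE-sham and 8 of 9 MLE-sham pigs were below every ENT-sham pig. SLC10A1 was significantly lower than in ENT-sham pigs on SLE (-0.73, SE 0.16, adjusted p = 0.000316) and on MLE (-0.85, SE 0.17, adjusted p = 8.27e-05). After ligation the levels were 205, 345 and 470 CPM in ENT-BDL, 112, 279 and 429 CPM in SLE-BDL, and 158, 182 and 229 CPM in MLE-BDL. ENT-BDL and SLE-BDL overlapped widely, whereas 5 of 8 MLE-BDL pigs were below every ENT-BDL pig. MLE-BDL pigs had significantly less than ENT-BDL pigs (-0.83, SE 0.18, adjusted p = 0.000454), while SLE-BDL against ENT-BDL was -0.26 (adjusted p = 0.271).

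BDL against sham was not called for SLC10A1 in any diet (MLE -0.24, adjusted p = 0.394, ENT -0.27, adjusted p = 0.252, and SLE 0.20, adjusted p = 0.537). The difference between the emulsions in ligated pigs was -0.58 for MLE against SLE (adjusted p = 0.088). It passed without SLE-BDL replicate 2 (-0.66, adjusted p = 0.0207) or SLE-BDL replicate 6 (-0.66, adjusted p = 0.0249), and DESeq2 called it (-0.58, adjusted p = 0.0414). From ENT-sham down the groups ran ENT-BDL, SLE-BDL, SLE-sham, MLE-sham and MLE-BDL, and no neighbours differed beyond their spread.

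SLCO1A2 encodes a sodium-independent carrier of bile acids and organic anions (chromosome 5, 52020303 to 52133132, plus strand). In human liver its protein has been placed in bile duct cells, so its place among the uptake genes follows its family and not a location measured here. By mean log2 level, formula-fed sham pigs stood apart from the other groups for it by more than the spread, as they did for ABCC4. For ABCC3 the gap only just passed the spread (0.274 against 0.270), and the ranges overlapped. ENT-sham pigs ran from 13.9 to 71.9 CPM (median 38.8), against 7.23 to 22.7 CPM (median 10.8) in ENT-BDL, 3.93 to 16.9 CPM (median 7.59) in SLE-sham and 7.10 to 15.2 CPM (median 11.06) in MLE-sham. The overlap was with the low end of ENT-sham, where replicate 2 was lowest. SLCO1A2 fell with ligation in ENT (-1.76, SE 0.23, adjusted p = 2.05e-07) and was lower on SLE (-2.23, SE 0.24, adjusted p = 1.26e-10) and MLE (-1.79, SE 0.24, adjusted p = 1.25e-07) in sham pigs. In these comparisons 8 of 10, 9 of 10 and 7 of 9 pigs were below every ENT-sham pig. Without both matching libraries the ENT value was -1.91 (adjusted p = 9e-09), and with the identifier block it was -1.87.

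After ligation SLCO1A2 fell on MLE, and it was lower on both emulsions than on formula. SLE-BDL pigs ran from 2.25 to 9.92 CPM (median 5.87) and MLE-BDL pigs from 3.81 to 11.3 CPM (median 5.51). SLE-BDL pigs overlapped widely with their sham group, and 7 of 8 MLE-BDL pigs were below every MLE-sham pig. The interaction of BDL with MLE against SLE was not called for SLCO1A2. BDL against sham gave -0.53 in SLE (SE 0.24, adjusted p = 0.213) and -0.88 in MLE (SE 0.26, adjusted p = 0.0165). Compared with ENT-BDL, SLE-BDL pigs had significantly less (-0.99, SE 0.24, adjusted p = 0.00173; 8 of 11 below every ENT-BDL pig), as did MLE-BDL pigs (-0.91, SE 0.26, adjusted p = 0.0101; 7 of 8 below). The effect of BDL was significantly smaller in SLE than in ENT (interaction 1.24, SE 0.33, adjusted p = 0.0288). That interaction was lost without SLE-BDL replicate 10, SLE-sham replicate 4 or ENT-sham replicate 12 (1.12, 1.15 and 1.11; adjusted p = 0.0529, 0.0515 and 0.053), with only the groups compared (1.24, adjusted p = 0.0592) and with replicate number as a block (1.14, adjusted p = 0.052). The interaction was 1.38 (adjusted p = 0.00628) without both matching libraries, and 0.88 (adjusted p = 0.409) for MLE against ENT. ENT-sham was followed by MLE-sham, ENT-BDL, SLE-sham, MLE-BDL and SLE-BDL, and only the first step was larger than the spread.

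SLCO2B1 encodes a carrier of steroid sulfates and other organic anions (chromosome 9, 9433978 to 9474248, plus strand). It fell with ligation on MLE, and its differences between diets were small. The lowest, median and highest levels were 276, 363 and 475 CPM in ENT-sham and 202, 327 and 415 CPM in ENT-BDL. They were 391, 439.5 and 519 CPM in SLE-sham, 273, 408 and 502 CPM in SLE-BDL, 335.3, 467 and 612 CPM in MLE-sham, and 254, 341 and 398 CPM in MLE-BDL. Every pair of groups overlapped, and 3 of 8 MLE-BDL pigs were below every MLE-sham pig. BDL against sham was -0.45 in MLE (SE 0.12, adjusted p = 0.00621), -0.22 in ENT (adjusted p = 0.137) and -0.15 in SLE (adjusted p = 0.499), and the interaction for MLE against ENT was -0.23 (adjusted p = 0.731).

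In the comparisons of diets, SLCO2B1 was higher in MLE-sham than ENT-sham pigs (0.32, SE 0.11, adjusted p = 0.0242), a call lost without MLE-sham replicate 4 (0.27, adjusted p = 0.0709) and with the identifier block (0.30, adjusted p = 0.0903). It was also higher in SLE-BDL than ENT-BDL pigs (0.33, SE 0.11, adjusted p = 0.0223), a call lost without ENT-BDL replicate 4 (0.27, adjusted p = 0.064), without SLE-BDL replicate 8 (0.29, adjusted p = 0.0506), with the identifier block (0.24, adjusted p = 0.0824) and with only the groups compared (0.32, adjusted p = 0.099). SLE-sham against ENT-sham was 0.25 (adjusted p = 0.0616). It passed with only the groups compared (0.25, adjusted p = 0.0319), and without ENT-sham replicate 4 (0.28, adjusted p = 0.0414), ENT-sham replicate 5 (0.29, adjusted p = 0.0331) or ENT-BDL replicate 4 (0.26, adjusted p = 0.0429). No neighbours in the order MLE-sham, SLE-sham, SLE-BDL, ENT-sham, MLE-BDL and ENT-BDL differed beyond their spread.

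ABCC3 encodes a basolateral exporter of glucuronides and bile acids (chromosome 12, 26920764 to 26978389, plus strand). Formula-fed sham pigs had the most of it, and ligation lowered it in those pigs. ENT-sham pigs ran from 47.0 to 84.1 CPM (median 60.7) and ENT-BDL pigs from 33.2 to 69.1 CPM (median 43.0), with 7 of 10 ENT-BDL pigs below every ENT-sham pig. ABCC3 fell in ENT-BDL (-0.51, SE 0.11, adjusted p = 0.00094), and without the matching libraries the value was -0.55 (adjusted p = 0.000414). The lowest, median and highest levels were 30.03, 44.9 and 60.5 CPM in SLE-sham and 30.5, 44.3 and 48.7 CPM in MLE-sham. Both overlapped the lower part of ENT-sham, with 6 of 10 SLE-sham and 6 of 9 MLE-sham pigs below it. ABCC3 was significantly lower than in ENT-sham on SLE (-0.53, SE 0.11, adjusted p = 0.000271) and MLE (-0.60, SE 0.12, adjusted p = 0.000111).

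On the emulsions edgeR on all groups did not call the difference in ABCC3 after ligation. SLE-BDL pigs ran from 41.0 to 65.9 CPM (median 50.5) and MLE-BDL pigs from 44.5 to 59.4 CPM (median 53.6), where 6 of 8 were above every MLE-sham pig. The log2 fold change was 0.31 in MLE (adjusted p = 0.0979), where fitting only the groups compared called it (0.30, adjusted p = 0.0328), and 0.19 in SLE (adjusted p = 0.388). The effect of BDL differed significantly from that in ENT for SLE (interaction 0.70, SE 0.16, adjusted p = 0.00916) and for MLE (interaction 0.81, SE 0.17, adjusted p = 0.0423). The MLE interaction was lost without any 1 of 22 libraries (0.75 to 0.84, adjusted p from 0.0501 to 0.0761). These were ENT-sham replicates 1, 3, 4, 5 and 6, ENT-BDL replicates 3, 4, 5, 7 and 9, MLE-sham replicates 1, 3, 5, 8 and 9, and MLE-BDL replicates 1 to 7. Without both matching libraries it was 0.85 (adjusted p = 0.0144), and with the identifier block 0.82 (adjusted p = 0.00611). After ENT-sham the groups ran MLE-BDL, SLE-BDL, ENT-BDL, SLE-sham and MLE-sham, and only the first step was larger than the spread.

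ABCC4 encodes a basolateral exporter that carries bile acids together with glutathione (chromosome 11, 64089149 to 64309831, minus strand). It was lowest in formula-fed sham pigs. It rose with ligation in ENT and MLE pigs, and was higher with parenteral nutrition in sham pigs. ENT-sham pigs ran from 7.91 to 32.4 CPM (median 11.08), but the second highest had 12.1 CPM, and the highest was replicate 2. ENT-BDL pigs ran from 16.5 to 38.6 CPM (median 24.4), so apart from that library the groups were separate. ABCC4 rose in ENT-BDL (1.08, SE 0.18, adjusted p = 1.12e-05), and the rise was 1.26 (adjusted p = 3.48e-09) without both matching libraries and 1.11 with the identifier block. MLE-sham pigs ran from 14.2 to 25.5 CPM (median 19.2) and MLE-BDL pigs from 20.8 to 45.3 CPM (median 32.9), 6 of 8 lying above every MLE-sham pig (0.80, SE 0.20, adjusted p = 0.00302). SLE-sham pigs ran from 16.4 to 40.7 CPM (median 25.6) and SLE-BDL pigs from 25.8 to 50.04 CPM (median 34.5), a wide overlap (0.36, SE 0.18, adjusted p = 0.27).

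Against ENT-sham, ABCC4 was significantly higher in SLE-sham (1.12, SE 0.18, adjusted p = 1.36e-06) and MLE-sham pigs (0.62, SE 0.18, adjusted p = 0.00986), and by 1.35 and 0.84 without both matching libraries. Against ENT-BDL the values were 0.40 in SLE-BDL (adjusted p = 0.108) and 0.34 in MLE-BDL (adjusted p = 0.227). The first passed without ENT-sham replicate 2 (0.40, adjusted p = 0.0429) or both matching libraries (0.44, adjusted p = 0.0279), and both passed with the identifier block (0.63, adjusted p = 0.00086, and 0.58, adjusted p = 0.0239). The interaction for SLE against ENT was -0.72 (adjusted p = 0.112). It passed without ENT-sham replicate 2 (-0.95, adjusted p = 0.00236), without both matching libraries (-0.90, adjusted p = 0.005) and with the identifier block (-0.80, adjusted p = 0.0196). The order was SLE-BDL, MLE-BDL, SLE-sham, ENT-BDL, MLE-sham and ENT-sham, and the steps beyond the spread were those into MLE-sham and into ENT-sham. The step into MLE-sham only just passed the spread (0.424 against 0.419).

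The pig annotation holds 19 further loci described as ABCC4-like, of which 7 were tested, and reads shared between copies could not be assigned. Their summed level averaged 5.60 CPM in ENT-sham against 15.6 CPM in ENT-BDL, 5.03 against 7.32 CPM in the SLE groups and 3.21 against 6.35 CPM in the MLE groups. The standard deviation was larger than the mean in ENT-sham (6.58 CPM) and MLE-sham (3.24 CPM). No value of the sum without the matching libraries is given. Unlike ABCC4, this sum was largest in ENT-BDL and was not tested. LOC100738425 was the most abundant of these loci.

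SLC51A encodes the alpha subunit of the organic solute transporter (chromosome 13, 133851775 to 133869753, minus strand), which exports bile acids only when paired with the product of SLC51B. Ligation raised it on formula and on MLE. ENT-sham pigs ran from 0.373 to 8.54 CPM (median 0.745), but the second highest had 1.65 CPM, and the highest was again replicate 2. ENT-BDL pigs ran from 1.91 to 23.8 CPM (median 4.89), so all were above the second highest sham pig. The log2 fold change was 2.10 (SE 0.57, adjusted p = 0.00683), rising to 2.92 (adjusted p = 0.000197) without both matching libraries, and 2.24 (adjusted p = 0.000175) with the identifier block. MLE-sham pigs ran from 0.557 to 5.89 CPM (median 1.79) and MLE-BDL pigs from 2.65 to 18.7 CPM (median 9.65), 7 of 8 being above every MLE-sham pig (2.33, SE 0.65, adjusted p = 0.00935). SLE-sham pigs ran from 2.38 to 20.2 CPM (median 6.89) and SLE-BDL pigs from 2.86 to 118 CPM (median 5.59), where the second highest had 30.1 CPM. These overlapped throughout (1.07, SE 0.54, adjusted p = 0.284), and without SLE-BDL replicate 7 the log2 fold change was -0.000523 (adjusted p = 1).

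By diet, SLC51A was significantly higher in SLE-sham than ENT-sham pigs (2.53, SE 0.57, adjusted p = 0.000548), and by 3.37 without both matching libraries. MLE-sham against ENT-sham was 0.39 (adjusted p = 0.708), but 1.23 without both matching libraries (adjusted p = 0.157) and 1.12 with the identifier block (adjusted p = 0.199). MLE-sham against SLE-sham was -2.14 (adjusted p = 0.0807). This passed without ENT-sham replicate 2 (-2.14, adjusted p = 0.0425), MLE-sham replicate 7 (-2.51, adjusted p = 0.0421) or SLE-BDL replicate 7 (-2.14, adjusted p = 0.0252), with the identifier block (-1.87, adjusted p = 0.0487), by DESeq2 (-2.13, adjusted p = 0.0225) and with only the groups compared (-2.14, adjusted p = 0.0248). SLE-BDL against ENT-BDL was called at 1.496 (SE 0.55, adjusted p = 0.0459), and this rested on SLE-BDL replicate 7, without which it was 0.42 (adjusted p = 0.587). The call was also lost without any of ENT-BDL replicates 1, 3, 4, 5, 6, 7, 8, 9 and 10, SLE-BDL replicates 6 and 9, ENT-sham replicate 8, MLE-sham replicate 5 or SLE-sham replicate 3 (1.38 to 1.53, adjusted p from 0.0508 to 0.0779), with only the groups compared (1.49, adjusted p = 0.153), with no filter on low counts (1.49, adjusted p = 0.0713) and with replicate number as a block (1.17, adjusted p = 0.119). The interaction for MLE against ENT was 0.23 (adjusted p = 0.967), but -0.60 without both matching libraries (adjusted p = 0.878) and -0.02 with the identifier block (adjusted p = 0.995), so its direction was not settled. The interaction was -1.03 for SLE against ENT (adjusted p = 0.588). This was -2.11 without SLE-BDL replicate 7 and -1.85 without both matching libraries (adjusted p = 0.175), and was not called whichever library was left out. By mean log2 level the groups ran MLE-BDL, SLE-BDL, SLE-sham, ENT-BDL, MLE-sham and ENT-sham, and only the step from ENT-BDL to MLE-sham was larger than the spread. By mean CPM SLE-BDL came first (19.0 CPM, against 10.3 CPM in MLE-BDL), with replicate 7 in it.

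SLC51B encodes the beta subunit of the same transporter (chromosome 1, 163081145 to 163089491, plus strand). It moved much as SLC51A did, at a higher level. ENT-sham pigs ran from 4.74 to 34.8 CPM (median 9.38), replicate 2 being highest and the next 23.3 CPM, and ENT-BDL pigs from 16.3 to 61.02 CPM (median 32.7). The ranges shared their middle part, with 4 of 10 ENT-BDL pigs above every ENT-sham pig. SLC51B rose in ENT-BDL (1.57, SE 0.31, adjusted p = 0.000229), by 1.86 without both matching libraries (adjusted p = 9.42e-06) and by 1.62 with the identifier block. MLE-sham pigs ran from 4.87 to 38.0 CPM (median 11.9) and MLE-BDL pigs from 12.1 to 50.8 CPM (median 38.9), with 4 of 8 above all MLE-sham pigs (1.304, SE 0.36, adjusted p = 0.00793). SLE-sham pigs ran from 8.43 to 52.6 CPM (median 29.6) and SLE-BDL pigs from 9.25 to 58.0 CPM (median 33.7), almost the same range (0.34, SE 0.31, adjusted p = 0.622).

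SLC51B was significantly higher in SLE-sham than ENT-sham pigs (1.26, SE 0.31, adjusted p = 0.00154), whereas MLE-sham against ENT-sham was 0.27 (adjusted p = 0.599), or 0.54 without both matching libraries (adjusted p = 0.225) and 0.63 with the identifier block (adjusted p = 0.259). Ligated groups had alike levels, at 0.02 for SLE-BDL (adjusted p = 0.967) and 0.00 for MLE-BDL (adjusted p = 0.998) against ENT-BDL. The difference between the emulsions in sham pigs was -0.99 (adjusted p = 0.167), and -1.30 (adjusted p = 0.0413) without MLE-sham replicate 7. The interaction for SLE against ENT was -1.24 (adjusted p = 0.13). It passed without ENT-sham replicate 2 (-1.503, adjusted p = 0.0238), without both matching libraries (-1.53, adjusted p = 0.0265) and with the identifier block (-1.46, adjusted p = 0.0439). By mean log2 level the order was ENT-BDL, MLE-BDL, SLE-BDL, SLE-sham, MLE-sham and ENT-sham, and only the step from SLE-sham to MLE-sham was larger than the spread.

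Set against each other within a pig, canalicular and basolateral transcripts had a balance whose median in formula-fed sham pigs lay at 1 end of the groups, with ranges that overlapped. These ratios are per kilobase and were not tested. The median ratio of ABCB11 to SLC10A1, export over uptake, was 0.566 in ENT-sham (0.427 to 1.15) and 1.16 in ENT-BDL (0.820 to 2.23). It was 1.35 and 0.981 in the sham and ligated SLE pigs, and 1.05 and 1.17 in those on MLE. SLC51B to ABCB11, basolateral over canalicular export, had a median in sham and ligated pigs of 0.118 and 0.296 on formula, 0.290 and 0.431 on SLE, and 0.180 and 0.581 on MLE. The ranges of this ratio overlapped in each diet, as in MLE-sham (0.0936 to 0.595) and MLE-BDL (0.180 to 0.845).

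The ratio of ABCC4 to ABCC2 had a median in sham and ligated pigs of 0.0397 and 0.0913 on formula, 0.0949 and 0.145 on SLE, and 0.0760 and 0.137 on MLE. ABCC3 to ABCC2 went the other way on formula, being highest in ENT-sham (median 0.245) and lower in ENT-BDL (median 0.173). On the emulsions its median was again higher in ligated than in sham pigs, at 0.156 and 0.174 in sham and ligated pigs on SLE, and 0.165 and 0.181 on MLE. Between the related exporters of the basolateral membrane, ABCC3 to ABCC4, the median was 5.73 in ENT-sham and 1.31 in ENT-BDL. In the other groups it was 1.80 (SLE-sham), 2.17 (MLE-sham), 1.44 (SLE-BDL) and 1.44 (MLE-BDL). ABCC3 thus exceeded ABCC4 most in formula-fed sham pigs, although ENT-sham replicate 2 had a ratio of 1.33. SLC51B exceeded SLC51A per kilobase in the median pig of every group, by a factor between 9.29 (SLE-sham) and 29.1 (ENT-sham).

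**Figure D3:**
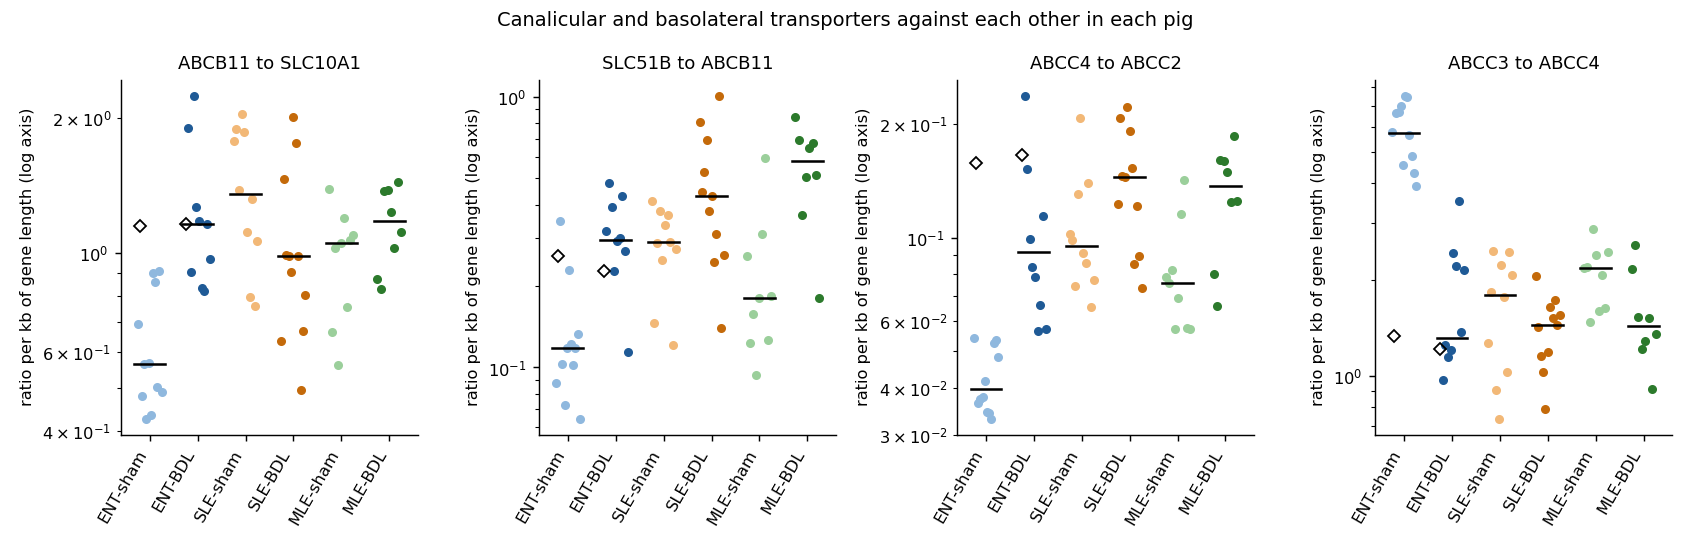
Ratios of levels per kilobase in each pig on a logarithmic axis, by group: ABCB11 to SLC10A1, SLC51B to ABCB11, ABCC4 to ABCC2 and ABCC3 to ABCC4.

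Across the 60 libraries ABCC4, SLC51A and SLC51B moved together and against SLCO1A2, and ABCC3 did not move with them (r = -0.399 with ABCC4 and 0.449 with SLCO1A2). Between the others, correlations of log levels were 0.807 for SLC51A with SLC51B, 0.764 for ABCC4 with SLC51A and -0.815 for SLCO1A2 with ABCC4. With group means subtracted these were 0.631, 0.435 and -0.393, so the sign was the same among pigs of a group. SLC10A1 and SLCO1A2 had r = 0.697, and 0.605 within groups. ABCB11 and SLC51A were more alike within groups (r = 0.608) than over all libraries (r = 0.433), and ABCC2 was unrelated to ABCB11 (r = 0.0854). SLE-BDL replicate 7 and ENT-sham replicate 2 were each the highest of their group for both ABCB11 and SLC51A. No correlation without them is given.

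Other genes tracked these transporters, as description over the same 60 libraries and 13668 genes. SLCO1A2 was most like SELENBP1 (r = 0.91), FMO5 (r = 0.882) and IL6R (r = 0.87). SLC10A1 was most like CYP1A2 (r = 0.846), SLC27A5 (r = 0.825) and NR1I3 (r = 0.813), and SLCO2B1 most like HABP2 (r = 0.827). ABCC4 and SLC51A shared SGMS2 as the closest gene (r = 0.849 and 0.869), and SLC51B was closest to SLC26A6 (r = 0.786). ABCB11 was closest to SLC6A11 (r = 0.777), ABCC2 to EHHADH (r = 0.688), ATP8B1 to TMEM33 (r = 0.645) and ABCC3 to POR (r = 0.631). With group means subtracted, the closest gene remained SLC6A11 for ABCB11, SELENBP1 for SLCO1A2 and POR for ABCC3. It became RMDN2 for ABCC2, CYP27A1 for SLC10A1, SLC26A4 for ABCC4 and SLC15A1 for SLC51B.

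Some other canalicular transporters also rose with ligation on formula. Of 7 tested, DESeq2 called 2 in ENT and edgeR 3 (all genes 17.4%): ABCB4 (1.71, adjusted p = 7.47e-06), ABCG5 (0.88, adjusted p = 1.17e-06) and ABCG8 (0.33, adjusted p = 0.0488), where ABCB4 is the phospholipid partner of ABCB11 in bile. In MLE 1 rose, ABCB4 (1.11, adjusted p = 0.00865), and in SLE edgeR called 0, with 3 at unadjusted p below 0.05 and 0 by DESeq2. In sham pigs 4 were higher on SLE than on formula (ABCB4 1.32, ABCG5 0.97, ABCG8 0.84 and ABCB1 0.68, all genes 27.5%) and 3 on MLE (ABCG8 0.51, ABCG5 0.46 and ABCB1 0.45, all genes 21.1%). So the canalicular ABCB4, ABCG5 and ABCG8 were higher on SLE in sham pigs while ABCB11 and ABCC2 were not called. The effect of BDL on ABCG5 was lower in SLE (interaction -1.27, adjusted p = 2.42e-05) and MLE (interaction -0.92, adjusted p = 0.0423) than in ENT. Both interactions were larger in size than the rise in ENT (0.88), so that rise was not seen on either emulsion. The MLE interaction was close to the threshold, with 0.0617% of all genes called in that comparison. No value for ABCG5 with a library left out is given.

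Other uptake genes of the hepatocyte, 9 of them tested, had few calls after ligation, at shares near those of all genes (17.4% in ENT and 14.4% in MLE). In ENT 2 fell with ligation (SLC22A3 -0.72, adjusted p = 0.00407; SLC22A7 -0.48, adjusted p = 0.0377), and in MLE 1, the bile acid ligase SLC27A5 (-0.95, adjusted p = 0.0213). In SLE edgeR called 0, with 0 at unadjusted p below 0.05 and 0 by DESeq2. In sham pigs edgeR called 3 of the 9 lower and 0 higher on each emulsion (all genes 27.5% on SLE and 21.1% on MLE), among them, like SLC10A1, SLC27A5 (-1.84 on SLE, -1.61 on MLE) and SLC22A7 (-0.88 and -0.74). Among 9 other efflux and organic anion transporters, 2 fell in ENT, again near the shares of all genes (ABCC1 -0.42, adjusted p = 0.033; ABCC6 -0.39, adjusted p = 0.0203) and 1 rose in MLE (SLC22A5 0.57, adjusted p = 0.0034). In SLE edgeR called 0 of these, with 2 at unadjusted p below 0.05 and 0 by DESeq2.

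Genes that sense bile acids changed in both directions after BDL in each diet. Genes that place transporters in the membrane did so only in ENT, and their counts in ENT and MLE were near the shares of all genes. The shares of all genes called after BDL were 17.4% in ENT, 14.4% in MLE and 4.54% in SLE. Of 12 tested trafficking genes, ENT had 1 higher and 2 lower after BDL (EZR 0.52, adjusted p = 2.45e-05; PDZK1 -0.38; SLC9A3R1 -0.31). SLE and MLE each had 2 higher and 0 lower: STX3 (1.55 and 1.70) and EZR (0.44 and 0.68). Of 18 tested sensing and regulatory genes, ENT had 3 higher and 7 lower, among them NR0B2 (-0.72, adjusted p = 0.00056) and NR1H4 (-0.22, adjusted p = 0.012), the bile acid receptor that acts on ABCB11, SLC51A and SLC51B. SLE had 1 higher and 1 lower (KLB 0.54 and NR1H3 -0.23), and MLE 2 higher and 5 lower, with VDR 3.496 and NR1I3 -0.79. NR1I3, whose level followed SLC10A1, was lower in sham pigs on SLE (-1.35) and MLE (-1.41) than on formula.

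Of 12 tested genes of bile acid synthesis and conjugation, 3 were higher and 1 lower after BDL in ENT (all genes 17.4%), and 2 and 3 in MLE (all genes 14.4%). In SLE 1 was higher and 2 were lower (all genes 4.54%). CYP7A1, the first enzyme of the main route to bile acids, rose in ENT (2.52, adjusted p = 0.00051) and MLE (2.84, adjusted p = 0.014), diets in which SLC51A and SLC51B also rose. The paper's qPCR likewise had more CYP7A1 in ENT-BDL than ENT-sham pigs, but it found no increase in MLE-BDL pigs. It also found far less CYP7A1 on parenteral nutrition than in ENT-BDL pigs. These fold changes do not show the level, which is not given here. In sham pigs 5 of these genes were lower and 0 higher on each emulsion than on formula (all genes 27.5% on SLE and 21.1% on MLE), as SLC10A1 was.

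Transcripts of the cell types that carry these transporters also differed between groups, and the summed marker levels were not tested. In bulk tissue, fewer cells and less RNA per cell cannot be told apart. Of all genes, 8.89% rose and 8.53% fell with BDL in ENT, 7.85% rose and 6.58% fell in MLE, and 2.97% rose and 1.57% fell in SLE. Of 11 tested hepatocyte markers 0 rose and 6 fell with BDL in ENT, 1 rose in SLE (HP), and 0 rose and 9 fell in MLE. Their sum, led by ALB, averaged 150829 CPM in sham and 105152 CPM in ligated pigs on formula, 129118 and 115010 CPM on SLE, and 159153 and 92908 CPM on MLE. ABCC2 and ATP8B1 were not called in ENT and MLE, where hepatocyte markers fell.

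Of 15 tested markers of bile duct cells, which also make SLC51A, SLC51B and ABCC3, 9 rose and 0 fell in ENT, 4 rose and 0 fell in SLE, and 10 rose and 1 fell in MLE, against 8.89%, 2.97% and 7.85% of all genes that rose. Their sum, led by CLDN4, averaged 256 CPM in sham and 578 CPM in ligated pigs on formula, 395 and 530 CPM on SLE, and 291 and 526 CPM on MLE, and SLC10A2 was at 0 in all 60 libraries. The sum was 863 CPM in ENT-sham replicate 2 and 843 CPM in ENT-BDL replicate 1. SLE-BDL replicate 7, with the most SLC51A, had 536 CPM, close to the mean of its group. Whether SLC51A and SLC51B rose in hepatocytes or in bile duct cells could not be told from these counts.

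The shares of all genes called with BDL were 17.4% in ENT, 14.4% in MLE and 4.54% in SLE. Of 13 macrophage markers, led by CD5L, 2 rose and 2 fell in ENT, 2 and 3 in MLE, and 1 and 1 in SLE. Their sum averaged 2193 CPM in sham and 1647 CPM in ligated pigs on formula, 1894 and 1396 CPM on MLE, and 1816 and 1518 CPM on SLE. Of 12 stellate cell markers, led by COL3A1, 2 rose and 1 fell in ENT, 4 and 1 in MLE, and 2 and 0 in SLE. Their sum averaged 1814 CPM in sham and 2974 CPM in ligated pigs on formula, 1989 and 4123 CPM on MLE, and 2330 and 3411 CPM on SLE. Its medians were 1502 and 2835 CPM on formula, 1887 and 4133 CPM on MLE, and 2107 and 2461 CPM on SLE. The highest SLE-BDL pig had 8174 CPM. Of 11 tested endothelial markers, led by STAB2, 0 rose and 2 fell in ENT and MLE, with sums of 1341 and 1135 CPM on formula, 1275 and 1035 CPM on MLE, and 1140 and 1057 CPM on SLE. In SLE edgeR called 0 of these, with 1 at unadjusted p below 0.05 and 0 by DESeq2.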

How the data were processed

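The authors' gene counts for the 60 libraries were used as deposited. They were made by the authors with fastp, HISAT2 2.0.5, StringTie 1.3.3 and featureCounts 1.5.0-p3 on Sscrofa11.1. Gene length came from the length column deposited with the counts. Features without a gene name (24 of 30359, holding 0.0084% to 0.041% of counts) were left out. The members and the other gene lists were chosen with earlier results of these data known. Genes with low counts were removed with filterByExpr, libraries were scaled by TMM, and the 6 groups were fitted together by edgeR quasi-likelihood, with contrasts for each comparison and interaction. Tests were two-sided, and p was adjusted by Benjamini-Hochberg over 16210 genes, with 0.05 as the threshold. Alternatives were DESeq2, RLE scaling, other count filters, only the groups compared, identifier and replicate blocks, the matching libraries left out, and each library left out in turn. The code was tested on simulated data. R 4.3.3, edgeR 4.0.16, limma 3.58.1, DESeq2 1.42.0, Python 3.11.15, numpy 2.4.6, pandas 2.3.3 and matplotlib 3.10.9 were used.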

Additional observations from a re-analysis of the deposited data

Results flagged for a closer look

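Sets of levels (1 gene in 1 group of 8 to 10 pigs) were checked on the log scale by Dixon's test for a lone extreme pig. Of 40 sets, 6 held one, where chance alone would give about 1 in 20. The sets were not independent, as the same pigs gave every gene and some pigs were flagged for more than 1 gene. On this scale all were MLE pigs. Levels in CPM were not checked in this way, where ENT-BDL replicate 2 stood far above its group for SLC51A (23.8 CPM, the next 7.68 CPM). MLE-sham replicate 2 was lowest for ABCB11 (216 CPM, the next pig 333 CPM) and for ATP8B1 (34.7 CPM, the next 43.9 CPM), and MLE-sham replicate 7 for ABCC2 (243 CPM, the next 356 CPM). MLE-BDL replicate 8 was lowest for SLC51A (2.65 CPM, the next 7.73 CPM) and SLC51B (12.1 CPM, the next 25.8 CPM), and MLE-BDL replicate 2 highest for SLCO1A2 (11.3 CPM, the next 6.21 CPM). The groups of 11 and 12 pigs were not checked in this way, so ENT-sham replicate 2 and SLE-BDL replicate 7 are not among these.

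The effect of BDL differed between diets for SLCO1A2 in SLE against ENT (interaction 1.24) and for ABCC3 in SLE against ENT (0.699) and MLE against ENT (0.815).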

How the results depend on the processing

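No member changed direction among the values that passed in any setting. Across settings, 44 pairs of a gene and a comparison were called at least once, and RLE scaling left the status of all 44, called or not, as it was. DESeq2 left 40 of these with the same status and called 4 more, and the count of members called became 1 in MLE-BDL against SLE-BDL, 2 in MLE-sham against SLE-sham and 3 in the interaction of SLE with ENT. With no filter on low counts, SLE-BDL against ENT-BDL had 2 (SLCO1A2 and SLCO2B1). With at least 10 counts asked of every library, SLC51A had no value and the other calls were kept. Fitting only the groups compared gave 1 in SLE-BDL against ENT-BDL, where ABCB11, SLCO2B1 and SLC51A were lost, 2 in MLE-sham against SLE-sham and 1 in the interaction of SLE with ENT, where SLCO1A2 was lost. It also gave 6 in MLE BDL, adding ABCC3 (0.30, adjusted p = 0.0328), and 7 in SLE-sham against ENT-sham, adding SLCO2B1 (0.25, adjusted p = 0.0319).

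Asking for a fold change above 2 as well left 2 in MLE BDL, 1 in SLE-BDL against ENT-BDL, 0 in MLE-BDL against ENT-BDL by edgeR, and 1 in MLE-sham against ENT-sham. It left 1 in the interaction of SLE with ENT and 0 in that of MLE with ENT.

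With the identifier block MLE-sham against SLE-sham had 1 and the interaction of SLE with ENT 4. Without both matching libraries these were 1 and 5. With the replicate block these were 1 (SLC51A -2.48, adjusted p = 0.0287) and 1, and SLC51A was lost in SLE-BDL against ENT-BDL (1.17, adjusted p = 0.119). Replicate numbers did not pair pigs across groups: for 137 pairs with the same number the mean r was 0.00465 (median -0.0173, range -0.231 to 0.381), and 16 of 60 libraries correlated best with a library of their own number.

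Leaving out each library in turn gave 0 to 1 in SLE BDL, 1 to 5 in SLE-BDL against ENT-BDL, 0 to 1 in MLE-BDL against SLE-BDL and 0 to 2 in MLE-sham against SLE-sham. It gave 6 to 7 in SLE-sham against ENT-sham, 4 to 5 in MLE-sham against ENT-sham, 1 to 5 in the interaction of SLE with ENT and 0 to 1 in that of MLE with ENT. The 6 calls of ENT BDL, the 5 of MLE BDL and the 3 of MLE-BDL against ENT-BDL were kept each time.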
